A study of Xenopus laevis with 27 samples.

Results

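Xenopus laevis embryos injected with GFP RNA were compared between the tailbud at stage 28 and the neurula at stage 18, and the difference was taken as stage 28 minus stage 18. The comparison uses 6 of the 27 Affymetrix arrays of the series, 3 GFP arrays at each stage, and all 15495 probe sets of the array that carry 1 gene symbol, for 11303 symbols. The stage 28 group and the stage 18 group were both whole embryos that received 1.5 ng of capped GFP RNA in 1 blastomere after the first cleavage, so GFP RNA and the injection itself are common to both and an uninjected embryo is not part of the comparison. The other arrays are GFP embryos at stage 38 and embryos given GFP with ICD, the Notch intracellular domain that activates Notch signalling, or with DBM, a form of suppressor of hairless that cannot bind DNA and suppresses the pathway, at the same 3 stages. Each array held RNA pooled from 10 embryos. The design text calls the 3 arrays of a group biological replicates, and the labels do not name clutches. The p-values measure the spread between pools within a group, taken over all 27 arrays and not only these 6. Within a stage, same-numbered arrays of the 3 constructs deviated together, so the 27 arrays are not fully independent measures of this spread.

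Between these stages the neural plate closes into a tube, somites form in sequence at the back of the embryo, and the tail bud takes over axis elongation. Somite cells turn into contractile muscle, neurons send out axons, epidermal ciliated cells and ionocytes mature, the kidney tubules and blood islands differentiate, and the endoderm begins to make organs. X. laevis is an allotetraploid frog: most genes have a copy on the long (L) and on the short (S) subgenome, and symbols end in .L or .S accordingly.

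Values are RMA-summarised log2 intensities, so a difference of 1 is a doubling of the array signal. A probe set was called when its limma-adjusted p was below 0.05. Of the 15495 probe sets with a symbol, 8677 (56.0%) were called, 3990 higher (25.8%) and 4687 lower (30.2%) at stage 28, and in 9528 (61.5%) the 3 stage 28 arrays and the 3 stage 18 arrays did not overlap. These shares are the background for each gene group that follows. The calls higher had a median difference of 0.83 and the calls lower of -0.65. Among the calls, 1532 probe sets with a symbol (9.89%) were higher by more than 1 on the log2 scale and 1074 (6.93%) lower by more than 1, and past 2 the counts were 460 higher (2.97%) and 195 lower (1.26%). Over all 32635 probe sets 16760 (51.4%) were called, and 15761 when the first stage 18 replicate was left out.

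Correlations between arrays were 0.991 to 0.992 within stage 28. At stage 18, replicates 2 and 3 correlated at 0.997 and replicate 1 with them at 0.984 to 0.985, and between the stages the range was 0.923 to 0.939. The spiked controls moved as well: 25 of 27 hybridisation control probe sets were lower at stage 28 (median difference -1.01), as were 27 of 42 poly-A controls (-0.69), and none of these was higher. The 3′ minus 5′ difference of the ef1a control, a measure of RNA integrity and labelling, was -0.20, -0.13 and -0.36 at stage 28, against -0.53, -0.93 and -0.82 at stage 18, without overlap, whereas that of gapdh and of actin overlapped. Their part in the stage differences was not tested. Control probe sets for reporter sequences averaged 4.5 to 4.58 on the stage 28 arrays and 4.72 to 4.73 on the stage 18 arrays, so a gene near these values was not shown to be above background and its difference has no exact size. Of these 64 reporter probe sets 12 were themselves called lower at stage 28 and 0 higher (median -0.155). The column names of a second deposited table carry codes that the arrays of the 2 stages do not share. What the codes stand for is not stated, and a batch that follows them cannot be told apart from stage. In RNA of whole embryos, fewer cells of a type and less RNA per cell cannot be told apart either.

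The largest rise was that of the ocm4 family, which encodes parvalbumin-like calcium buffers of fast muscle. The probe set of ocm4.5.S read 13.27, 13.49 and 12.99 at stage 28, against 4.47, 4.89 and 4.7 at stage 18, a difference of 8.56 ± 0.18 (SE, limma-adjusted p = 4.9e-19). The 3 stage 18 values lay at the level of the reporter controls and the 3 stage 28 values near the top, with no overlap. Of the 15 symbols with the largest rise, 8 were ocm4 genes, with differences of 6.53 for ocm4.3.L to 8.56. These genes are near-identical copies, and signal may be shared between their probe sets, so the family is better read as one. Others among the 15 were g6pc1.1.L, a catalytic subunit of glucose-6-phosphatase (11.07 ± 0.22 at stage 28 and 4.14 ± 0.26 at stage 18, SD, n = 3 each), the keratin gene krt12.2.L (6.38), fabp7.L, a fatty acid carrier (6.12), and apoe.L, a lipoprotein component (6.07).

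The largest fall was that of angpt4.S, an angiopoietin gene, which read 7.2, 7.70 and 8.29 at stage 28, against 13.94, 13.18 and 13.35 at stage 18 (difference -5.76 ± 0.41 SE, limma-adjusted p = 8.7e-11). Other large falls were those of gs17.L (-5.06) and of the glutamate decarboxylase gene gad1.2.L, which makes the transmitter GABA (-4.55). The POU factor gene pou5f3.1.L read 5.54, 5.21 and 5.18 at stage 28, against 10.02, 9.63 and 9.62 at stage 18 (-4.44 ± 0.17), while a second, dimmer probe set of the gene did not pass the test (0.01). The homeobox gene ventx3.2.S fell by 4.52 and h1-8.S, the oocyte-type linker histone, by 3.91. Of the 15 largest falls, 2 rested on uneven stage 28 arrays: rrm2.1.L, a ribonucleotide reductase subunit, read 8.58, 9.31 and 4.76 there, and eps8l3.S, an actin regulator, 9.22, 4.81 and 8.33.

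**Figure D1:**
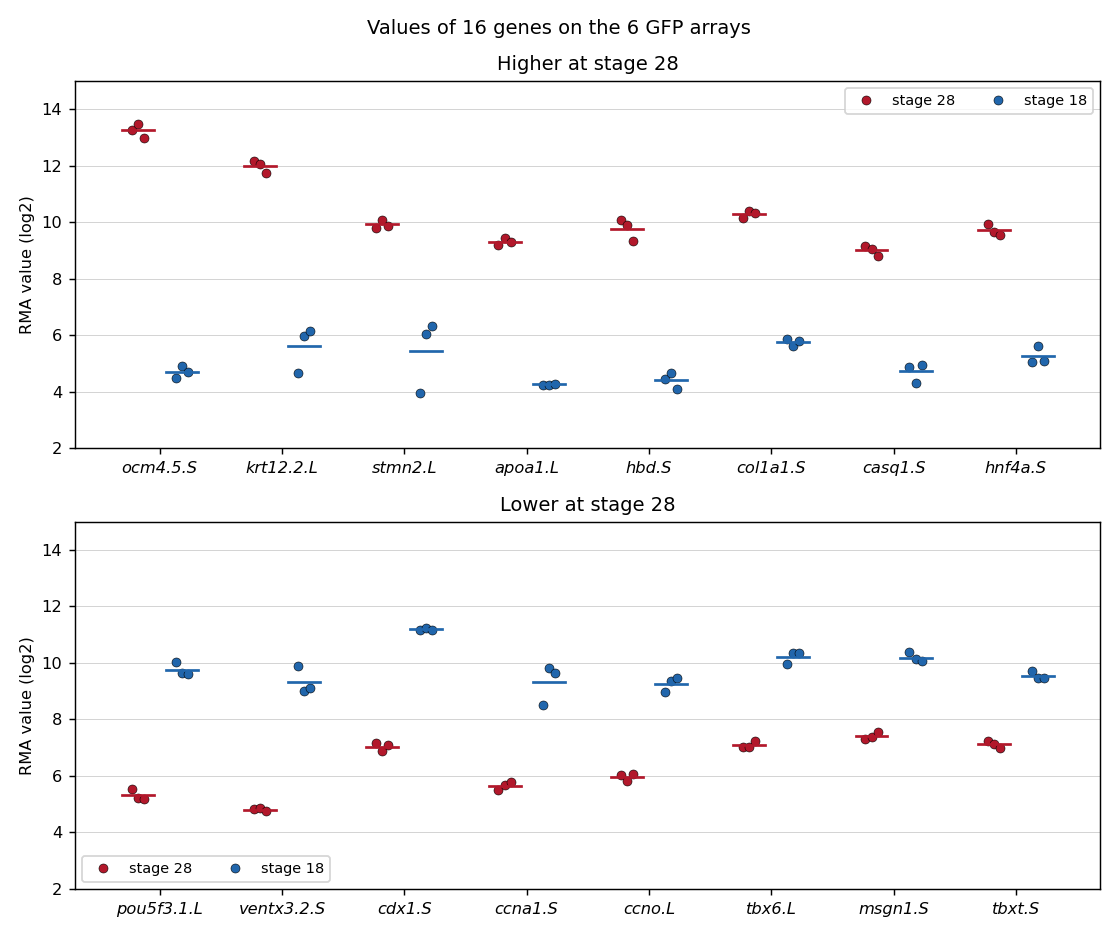
RMA values (log2) of 8 genes higher and 8 genes lower at stage 28, with 1 point for each of the 3 stage 28 arrays and the 3 stage 18 arrays and a line at each mean. In all 16 genes the stages do not overlap, and ocm4.5.S spans the widest range, with 12.99 to 13.49 at stage 28 and 4.47 to 4.89 at stage 18.

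Skeletal muscle genes rose as a group. Of 138 probe sets for contraction, calcium handling and muscle metabolism, 96 were higher and 2 lower, with a median difference of 1.23, against -0.07 over all probe sets with a symbol. Calcium handling, a role that holds the ocm4 genes, moved furthest (20 higher and 0 lower of 24, median 3.24). With 1 probe set per symbol its median was 2.90. The ocm4 copies count singly in both medians, and the family was not counted as one. Calsequestrin 1, which stores calcium in the sarcoplasmic reticulum, read 9.15, 9.06 and 8.82 in stage 28 embryos and 4.89, 4.32 and 4.95 in stage 18 embryos for casq1.S (4.29 ± 0.23, limma-adjusted p = 1.3e-12). The muscle phosphoglycerate mutase gene pgam2.S rose by 6.02, the Z disc gene myoz2.S by 5.66 and the fast troponin T gene tnnt3.S by 3.78. Subunits and anchors of the acetylcholine receptor, which receives the motor nerve's signal, were higher in 7 of 10 probe sets: rapsn.S by 2.95 and chrna1.L by 1.70.

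Some muscle genes were bright by stage 18. Creatine kinase (ckm.L) read 13.95, 13.96 and 14.13 at stage 28 and 11.56, 12.12 and 11.99 at stage 18, a difference of 2.12. Cardiac-type actin, the first sarcomeric actin of the somites, read 14.88, 14.83 and 14.85 at stage 28, against 14.35, 14.58 and 14.61 at stage 18 (actc1.L, 0.34 ± 0.07, limma-adjusted p = 0.00035), in the brightest part of the array's scale. The groups did not overlap in either gene.

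In the list of myogenic and dermomyotome regulators 8 of 43 probe sets were higher and 22 lower (median -0.36). Of the myogenic bHLH factors 3 of 9 rose and 5 fell, and of MEF2 and its partners 4 of 11 rose and 4 fell (median 0.01). The MEF2 median changed sign in other settings, among them a common median (-0.059). The early myogenic determination factors fell: myf5.L read 8.28, 8.28 and 8.48 at stage 28, against 10.54, 10.07 and 10.07 at stage 18 (-1.88 ± 0.14), and myod1.S 8.52, 8.77 and 9.06, against 10.44, 10.62 and 10.59 (-1.77 ± 0.13). The late factor of the same family, myf6, rose in both copies. myf6.S read 8.33, 8.32 and 8.36 at stage 28 and 5.88, 6.34 and 6.27 at stage 18 (2.17 ± 0.13, limma-adjusted p = 9.6e-12), and myf6.L rose by 1.82. In the dermomyotome and sclerotome, the outer and inner parts of the somite, 13 of 23 probe sets fell and 1 rose, among the falls meox2.S (-2.22).

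**Figure D2:**
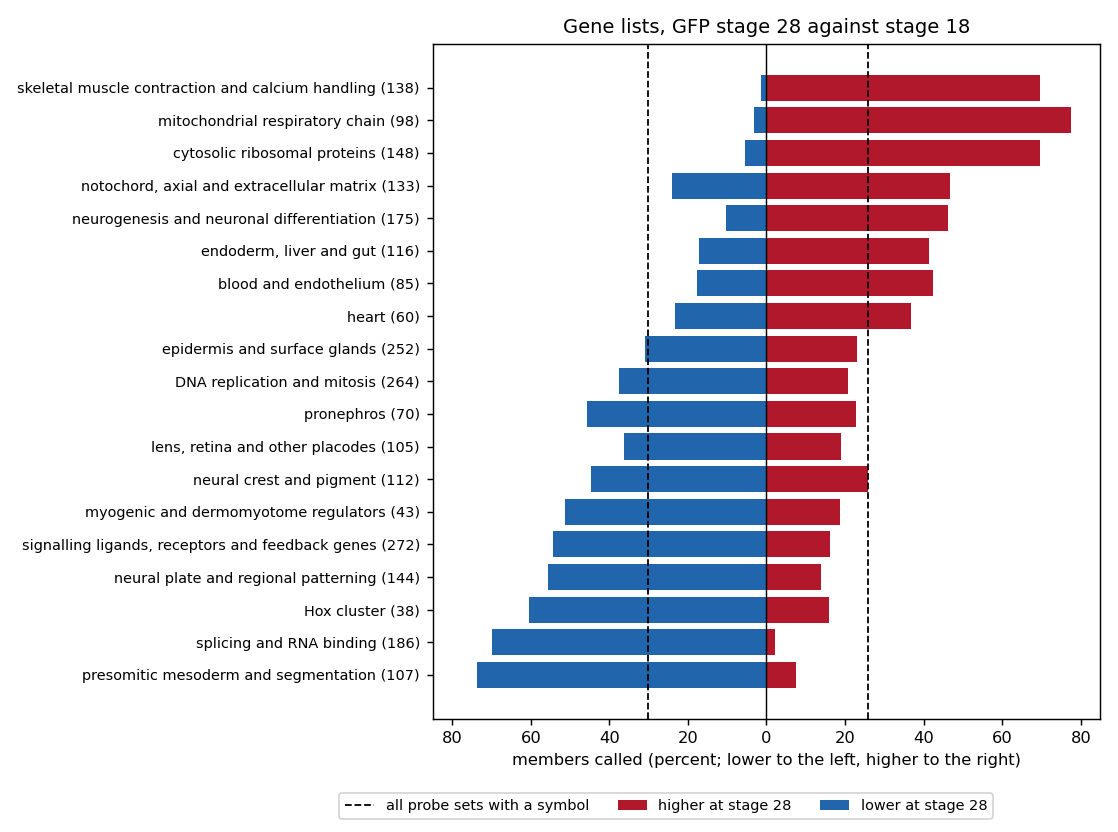
Percent of probe sets of each of 19 gene lists called higher (bars to the right) or lower (bars to the left) at stage 28 against stage 18, with dashed lines at the 25.8% and 30.2% of all probe sets with a symbol. Mitochondrial respiratory chain, ribosomal and skeletal muscle genes reach furthest right, and segmentation and splicing genes furthest left.

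The genes of the presomitic mesoderm and tail bud, where new somites are segmented from unsegmented tissue by a Notch- and Wnt-dependent clock, fell in 79 of 107 probe sets and rose in 8 (median -1.19). Of the tail bud and paraxial regulators, tbxt.S, the T-box gene brachyury, read 7.25, 7.13 and 6.98 at stage 28, against 9.71, 9.45 and 9.48 at stage 18 (-2.42 ± 0.13, limma-adjusted p = 1.7e-12). tbx6.L, needed for the paraxial fate, read 7.04, 7.04 and 7.22 at stage 28, against 9.95, 10.36 and 10.36 at stage 18 (-3.12 ± 0.18). The stage 28 arrays were below every stage 18 array by more than 2 in both. The caudal homeobox gene cdx1.S fell by 4.16, the Wnt target sp5l.S by 3.54 and the bHLH gene msgn1.S, a driver of presomitic differentiation, by 2.78.

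In the segment border role 15 of 18 probe sets fell and 3 rose. The border genes mespb.L and mespa.S fell by 2.64 and 2.24. Of the oscillator and Notch-related members, 14 of 22 fell and 0 rose: the Hes-type repressor genes esr-5.L and hes7.1.L fell by 2.25 and 1.97, and the Notch feedback gene nrarp.S by 1.19. The ligand gene dll1.L differed little, with 11.02, 10.94 and 11.01 at stage 28 against 11.09, 11.10 and 11.15 at stage 18 (-0.12 ± 0.09, limma-adjusted p = 0.260).

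Hox genes, whose order in the clusters follows the body axis in which they are used, differed by paralog group. Of 38 Hox probe sets 6 rose and 23 fell (median -0.45). In groups 5 to 9, which act in the trunk, 19 of 24 fell and 1 rose (median -0.77), and in groups 10 to 13, which act in the tail, 5 of 8 rose and 0 fell (median 0.33). hoxb6.S read 7.25, 7.22 and 7.42 at stage 28, against 8.91, 9.16 and 9.20 at stage 18 (-1.79 ± 0.12, limma-adjusted p = 4.8e-11), and hoxc6.S and hoxa7.L fell by 1.43 and 1.42. Among the posterior genes, hoxc12.L read 6.29, 6.71 and 6.41 at stage 28 and 5.03, 5.79 and 5.7 at stage 18 (0.96 ± 0.19). hoxd10.L rose by 0.81 and hoxd11.L by 0.54. With only the 6 arrays of the comparison in the model, 3 Hox probe sets rose. The difference between paralog groups itself was not tested.

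**Figure D3:**
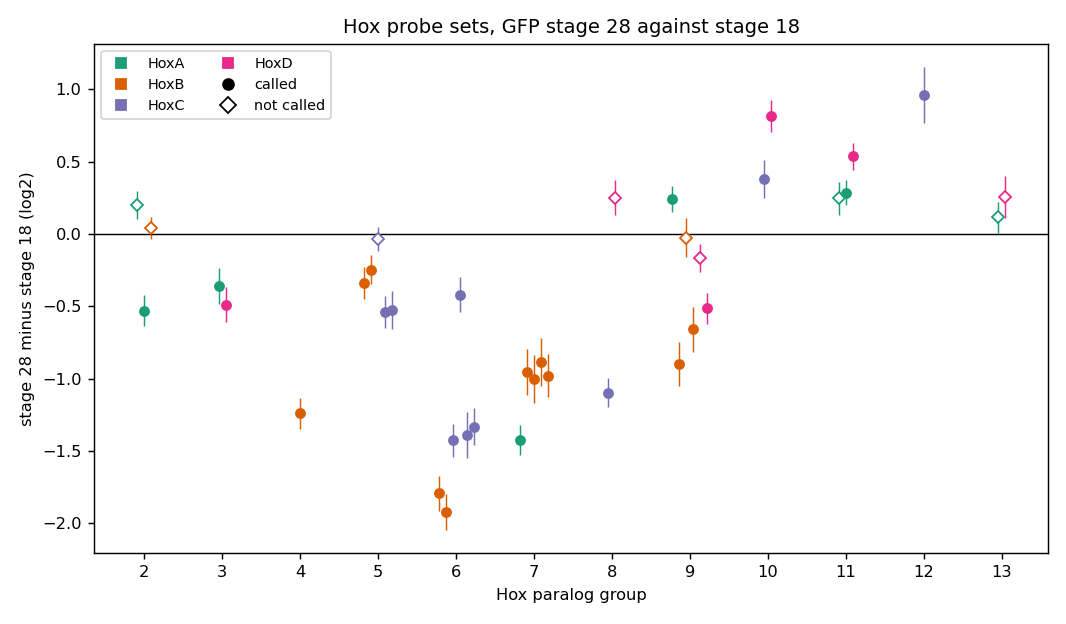
Difference stage 28 minus stage 18 (log2, bars are SE) of the Hox probe sets against paralog group, coloured by cluster, with filled points for those called. Groups 5 to 9 lie mostly below 0, down to -1.92, with -1.79 for the brightest probe set of hoxb6.S. The points above 0 at groups 10 to 13 reach 0.96 for hoxc12.L.

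Genes of the neural plate and its regions fell in 80 of 144 probe sets and rose in 20 (median -0.45). In the forebrain and eye field 29 of 49 fell and 8 rose. The eye field factor rax.L fell by 2.19 and the anterior factor hesx1.L by 2.62. In the midbrain and hindbrain 20 of 28 fell and 2 rose. The boundary gene gbx2.2.L read 5.39, 5.06 and 5.53 at stage 28, against 8.53, 8.49 and 8.40 at stage 18 (-3.15 ± 0.13, limma-adjusted p = 2.8e-14). Among progenitor genes 24 of 55 fell and 10 rose. sox3.S fell by 0.86, while sox2.L overlapped, with 9.95, 10.60 and 11.03 at stage 28 and 11.04, 10.83 and 10.65 at stage 18 (-0.31, limma-adjusted p = 0.263). The POU factor gene pou3f4.L rose by 2.15 and the Notch-responsive repressor gene hes5.2.L by 1.71.

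Genes of differentiating neurons rose in 81 of 175 probe sets and fell in 18 (median 0.27). Among RNA-binding proteins and cytoskeletal proteins of neurons 33 of 54 rose and 1 fell (median 0.74). The neurofilament gene nefm.L read 8.87, 8.79 and 8.90 at stage 28 and 4.86, 5.04 and 4.59 at stage 18 (4.02 ± 0.13, limma-adjusted p = 5.1e-16). stmn2.L, a microtubule regulator of growing axons, read 9.81, 10.08 and 9.88 at stage 28 and 3.95, 6.03 and 6.31 at stage 18 (4.49 ± 0.36), and its other probe set did not pass the test (0.01). The stage 18 spread of stmn2.L comes from replicate 1, the lowest of the 3. The neuronal RNA-binding gene elavl4.L rose by 3.22 and its relative elavl3.L was lower (-0.94, limma-adjusted p = 0.0051).

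Neuropeptide and secretory genes rose in 17 of 27 probe sets and fell in 0 (median 0.89), among them tac1.L, the substance P precursor, by 3.35 and sst.1.L, a somatostatin gene, by 2.23. Of the synapse genes 16 of 34 rose and 4 fell. The vesicle release gene cplx1.L rose by 3.66, and the vesicle calcium sensor gene syt1.L fell by 1.09. The carrier that loads GABA into vesicles (slc32a1.S) rose by 3.1. The GABA-synthesis gene gad1.2.L moved the other way, with 7.58, 7.89 and 7.53 at stage 28, against 12.97, 11.78 and 11.90 at stage 18. Proneural genes were near the shares over all probe sets, 9 of 41 higher and 12 lower, with neurod1.S, a late differentiation factor, up by 2.19.

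Sensory genes moved both ways. Of 105 probe sets for lens, retina and placodes, the thickened ectoderm that gives sense organs, 20 rose and 38 fell. The crystallin gene cryba1.L, a structural protein of lens fibres, read 8.16, 7.91 and 7.97 at stage 28 and 3.91, 4.32 and 3.97 at stage 18 (3.94 ± 0.27, limma-adjusted p = 4.8e-11). crybb1.L rose by 3.50 and the lens regulator pitx3.L by 2.04. Of the lens crystallins 6 of 13 rose and 1 fell (median -0.01, a sign that changed in some other settings). The fall, of crybb3.S, lay below the reporter controls, with means of 3.45 at stage 28 and 3.69 at stage 18. Of the lens regulators 5 of 14 rose and 3 fell (median -0.05, but 0.522 with 1 probe set per symbol). Of the photoreceptor genes 8 of 47 rose and 8 fell. The photoreceptor factor crx.L read 6.2, 6.2 and 6.48 at stage 28, against 8.35, 7.45 and 7.53 at stage 18 (-1.48 ± 0.24). Of the early placode genes 26 of 33 fell and 3 rose (median -0.83).

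Neural crest specifiers set up the migratory cells of the neural folds. Their role in the lists also holds other genes, such as ednra.L, ednrb2.S, cdh11.S and c3.L. In this role 34 of 73 probe sets fell and 15 rose. sox8.L read 6.63, 7.1 and 7.32 at stage 28, against 9.52, 10.03 and 10.05 at stage 18 (-2.85 ± 0.17, limma-adjusted p = 4.9e-12). snai2.L, which drives crest cells out of the epithelium, fell by 1.79 and sox10.L by 1.02. The rises of the same role included ednrb2.S, the endothelin receptor of pigment cell precursors, by 2.56. Among pigment genes rab38.S, a melanosome transport gene, rose by 2.75, and tyrp1.L, a melanin enzyme, by 2.03. Of 17 pigment probe sets 6 rose and 5 fell.

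The epidermis of the tailbud is a mosaic of goblet cells, ionocytes, small secretory cells and multiciliated cells. Its 252 probe sets split into 58 higher and 78 lower (median -0.09), near the background. Of the multiciliated cell regulators 12 of 14 fell and 0 rose (median -0.83). The cyclin-like gene ccno.L, which acts in the multiplication of centrioles, read 6.02, 5.81 and 6.06 at stage 28, against 8.95, 9.37 and 9.48 at stage 18 (-3.31 ± 0.24, limma-adjusted p = 1.6e-10). mcidas.S, which starts the ciliated cell program, fell by 1.68 and foxj1.S, the motile cilium factor, by 1.1. The motile cilium genes that these factors serve had 13 of 79 higher and 15 lower, and tekt3.L, a tektin of the axoneme, rose by 2.45.

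Ionocyte genes rose in 28 of 47 probe sets and fell in 12 (median 0.55). The carbonic anhydrase gene ca2.S rose by 2.50, while another, ca12.L, fell by 1.07. The proton pump subunit gene atp6v1f.S rose by 2.04, while the ionocyte factor foxi1.L fell by 0.89. Among keratin and junction genes 13 of 86 rose and 32 fell. krt12.2.L read 12.16, 12.05 and 11.76 at stage 28, against 4.67, 5.99 and 6.17 at stage 18, and krt12.2.S rose by 3.95, whereas cdh3.L, the C-cadherin of the early embryo, fell by 1.65 and the uroplakin gene upk1b.S by 1.87. astl3a.1.L, of the astacin-type metalloproteases, read 13.60, 13.18 and 13.15 at stage 28 and 7.33, 9.32 and 9.30 at stage 18 (4.66 ± 0.50), and has1.S, a hyaluronan synthase, fell by 2.31.

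Blood and vessel genes rose in 36 of 85 probe sets and fell in 15 (median 0.20). The globin gene hbd.S read 10.08, 9.89 and 9.33 at stage 28, against 4.44, 4.66 and 4.1 at stage 18 (5.36 ± 0.32, limma-adjusted p = 4.3e-12). hba4.S, an alpha globin, rose by 3.08, and globins as a whole rose in 6 of 14 probe sets and fell in 0. Myeloid genes rose in 12 of 23 and fell in 3, among them lcp1.S, an actin bundler of leukocytes, by 3.25 and the myeloperoxidase gene mpo.L by 2.54. Endothelial genes rose in 9 of 19 and fell in 3. Of these, egfl7.S and fli1.S rose by 2.54 and 2.42, and apln.L (-0.77) and aplnr.S (-0.72) were lower. Erythroid genes rose in 9 of 29 and fell in 9, near the shares over all probe sets. The early hematopoietic and ventral factor gata2.L fell, with 6.75, 7.23 and 7.45 at stage 28 and 10.49, 10.93 and 10.95 at stage 18 (-3.65 ± 0.18).

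Of 35 probe sets for heart regulators 8 rose and 13 fell, shares not far from those over all probe sets. tbx5.L rose by 1.49 and hand2.S by 1.31, and gata6.L and nkx2-5.S fell by 1.62 and 0.81. Of 25 contractile probe sets, some of which are also expressed in skeletal muscle, 14 rose and 1 fell. The cardiac myosin-binding protein gene mybpc3.S read 9.51, 9.46 and 9.15 at stage 28 and 5.1, 5.45 and 5.69 at stage 18 (3.96 ± 0.24, limma-adjusted p = 5.9e-12). The median of the whole heart list was 0.02 and changed sign when stage 28 replicate 3 was left out or the arrays were set to a common median.

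In the pronephros, the larval kidney, regulators fell in 24 of 38 probe sets and rose in 6. lhx1.L, which specifies the kidney field, fell by 1.43 and sall1.L by 1.94, each with 1 other probe set that did not pass the test. mecom.L, a factor of the distal tubule, averaged 8.99 ± 0.01 at stage 28 and 6.24 ± 0.31 at stage 18 (SD, n = 3 each), a difference of 2.75 ± 0.12 (SE, limma-adjusted p = 6.9e-14). Tubule transport genes, 9 higher and 8 lower of 31, were near the shares over all probe sets, with the sodium pump modulator fxyd2.S up by 2.72 and the GABA and taurine carrier gene slc6a13.L by 3.31.

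In the endoderm regulator role 20 of 53 probe sets fell and 11 rose. The role also holds genes that are not regulators, such as a2ml1.L (1.79) and darmin.L (1.69). sox17b.1.S, a founder factor of endoderm, read 7.35, 6.97 and 7.3 at stage 28, against 10.00, 10.64 and 10.60 at stage 18 (-3.21 ± 0.18, limma-adjusted p = 1.9e-12). hnf4a.S, a liver, gut and kidney factor, went up, with 9.93, 9.67 and 9.56 at stage 28 and 5.07, 5.61 and 5.1 at stage 18 (4.46 ± 0.16), though a second probe set did not pass the test (0.10). Genes for serum proteins and liver metabolism rose in 37 of 63 probe sets and fell in 0 (median 1.08). apoa1.L, the main protein of high-density lipoprotein, read 9.21, 9.43 and 9.30 at stage 28, against 4.24, 4.25 and 4.28 at stage 18 (5.06 ± 0.23). The fibrinogen gene fga.S rose by 4.63.

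Notochord and floor plate genes fell in 15 of 22 probe sets and rose in 4 (median -1.15). chrd.1.S, the BMP inhibitor chordin of the dorsal axis, read 7.76, 7.65 and 7.71 at stage 28, against 10.62, 10.59 and 10.64 at stage 18 (-2.91 ± 0.12, limma-adjusted p = 3.1e-14), and admp.S, a BMP ligand of the same tissue, fell by 3.34. Not all members of the notochord and floor plate role fell: its largest rise was that of the collagen gene col2a1.L (1.557), which also counts under other roles. Collagen genes rose in 17 of 24 probe sets and fell in 0 (median 1.04). col1a1.S read 10.14, 10.40 and 10.33 at stage 28, against 5.88, 5.62 and 5.78 at stage 18 (4.53 ± 0.12), and col6a1.L rose by 5.38. The matrix proteoglycan genes lum.L and dcn.L rose by 3.34 and 3.32, mmp13.S, a collagenase, by 4.03, and fn1.S, fibronectin, was lower (-0.94).

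Housekeeping machinery also moved in blocks. The respiratory chain rose in 76 of 98 probe sets and fell in 3 (median 0.76): 33 of 36 of complex I and 20 of 21 of ATP synthase rose and 0 fell. atp5pd.L, an ATP synthase subunit, read 10.91, 10.94 and 10.83 at stage 28 and 8.58, 7.93 and 7.91 at stage 18 (2.75 ± 0.16, limma-adjusted p = 2.9e-12). uqcrc2.S of complex III rose by 2.56 and ndufs4.S of complex I by 2.05, and sdhb.S of complex II fell by 0.95. Cytosolic ribosomal proteins rose in 103 of 148 and fell in 8 (median 0.32). Across the settings that kept all 148 probe sets, 77 to 104 rose. rpsa.L, a small-subunit protein, averaged 13.58 ± 0.10 at stage 28 and 12.31 ± 0.27 at stage 18 (SD, n = 3 each), a difference of 1.27. With 1 probe set per symbol 76 of 89 ribosomal genes rose, and without the probe sets whose names mark possible cross-hybridisation 49 of 87 probe sets rose.

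Splicing and RNA-binding genes fell in 130 of 186 probe sets and rose in 4 (median -0.58), the snRNP and spliceosome members in 43 of 57, with 0 higher. hnrnpa0.S, an hnRNP protein, read 9.72, 10.63 and 10.07 at stage 28, against 12.77, 12.17 and 12.04 at stage 18 (-2.18 ± 0.26, limma-adjusted p = 3.6e-07). lin28a.S, the RNA-binding protein that blocks let-7 maturation, fell by 1.51. Mitosis genes fell in 79 of 164 probe sets and rose in 16 (median -0.26), and replication genes rose in 39 of 100 and fell in 20 (median 0.24). ccna1.S, the embryonic A-type cyclin, read 5.5, 5.69 and 5.79 at stage 28, against 8.51, 9.82 and 9.64 at stage 18 (-3.66 ± 0.39). birc5.S, survivin, fell by 1.73, mcm6.L, a subunit of the replicative helicase, by 3.53, and pcna.S, the sliding clamp, rose by 1.24.

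Ligands, receptors and feedback genes of the major signalling pathways fell in 148 of 272 probe sets and rose in 44 (median -0.40). By pathway the falls and rises were 38 and 12 of 66 for Wnt, 42 and 15 of 76 for BMP and TGF-beta, 21 and 4 of 40 for FGF, 10 and 1 of 18 for Hedgehog, 22 and 7 of 38 for retinoic acid, and 15 and 5 of 34 for Notch. The Wnt ligands wnt8a.L and wnt5b.S fell by 2.1 and 2.62, and the BMP ligand bmp4.S and its feedback inhibitor szl.S by 1.17 and 2.04. fgf13.L, an intracellular FGF family member of neurons, rose, with 8.63, 8.34 and 8.25 at stage 28 and 4.72, 4.62 and 4.47 at stage 18 (3.81 ± 0.13, limma-adjusted p = 5.5e-16). The retinaldehyde dehydrogenase gene aldh1a1.S rose by 3.28, the BMP inhibitor grem1.L by 2.64 and the ligand tgfb1.L by 1.82. The Notch target hey1.S rose by 2.14 and hes1.L fell by 0.84.

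The L and S copies of a gene could be set against each other in 2009 pairs, with the L minus S change as the tested quantity, since differing probes make the levels themselves not comparable. In 927 pairs (46.1%) the change of the copies differed at a limma-adjusted p below 0.05, with the L copy moving more upward in 447 and the S copy in 480. Both copies were called in the same direction in 788 pairs and in opposite directions in 79. In 748 pairs 1 copy alone was called, and in 481 of these the difference itself passed the test. Probe sets of the same symbol also disagreed. Of 2702 symbols with more than 1 probe set, 121 had probe sets called in opposite directions. In 1073 some were called in 1 direction and others were not called. Cross-hybridisation does not cancel in the L minus S change, and the part of the probes in the homeolog counts was not tested.

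The pair of lowest p was gmds, a GDP-mannose dehydratase of fucose synthesis. Its L copy read 11.90 to 12.15 on the stage 28 arrays and 9.46 to 9.57 on the stage 18 arrays, a rise of 2.545. Its S copy read 8.19 to 8.54 at stage 28, against 9.73 to 10.08 at stage 18, a fall (-1.45). The L minus S change was 4.00 ± 0.13 (SE, limma-adjusted p = 9.8e-16), and neither copy's stages overlapped. The pairs of low p named here were taken only from those with 1 copy called higher and the other lower or not called. Unlike changes of their copies follow from that choice. Among them, opposite directions also held for hpgds, a prostaglandin D synthase (L 2.68, S -0.93), for sncg, gamma-synuclein (L -0.87, S 1.75), and for rpe65, of the visual cycle (L 2.05, S -0.53). In eef1d, a translation elongation factor subunit counted among the 79, the S copy read 3.95 to 4.25 at stage 28 and 4.56 to 5.01 at stage 18, at the level of the reporter controls, so its fall (-0.70) beside a rise of the L copy (1.77) has no clear size or direction.

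The widest gap was that of xepsin, an epidermal serine protease. The L copy read 8.57, 8.37 and 7.97 at stage 28 and 11.67, 10.39 and 10.40 at stage 18, and the S copy 10.71, 9.85 and 10.51 at stage 28 and 4.06, 5.7 and 5.98 at stage 18, so that the changes were -2.51 and 5.11 (L minus S -7.62 ± 0.68, limma-adjusted p = 9.4e-09). In other pairs with a wide gap 1 copy alone was called. For fibrinogen fga the S copy rose by 4.63 and the L copy gave 0.27, and for the Z disc gene myoz1 the values were 4.69 for S and 0.38 for L. ogn, a matrix proteoglycan, showed the reverse pattern, with 3.54 for L and 0.05 for S. The L copies of fga and myoz1 and the S copy of ogn read under 5 in both stages, near the reporter controls, so a change of these copies could not be seen.

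**Figure D4:**
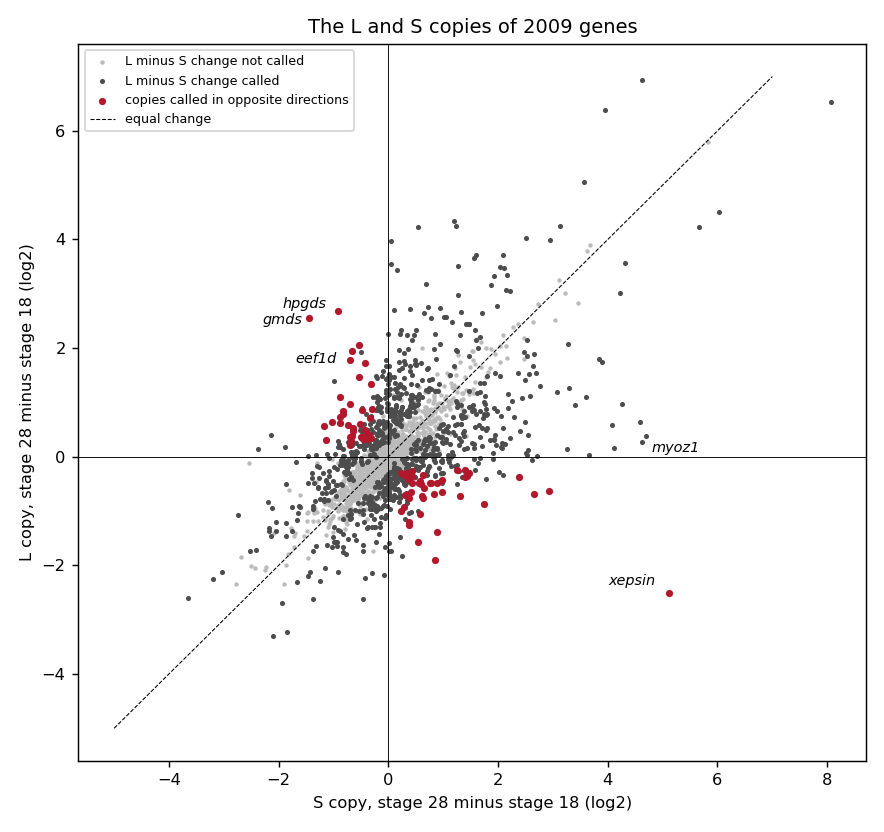
Change of the L copy (vertical axis) against that of the S copy (horizontal axis), stage 28 minus stage 18 in log2, for 2009 pairs, with the dashed line at equal change. Dark points are the 927 pairs whose difference was called, and red points the 79 pairs whose copies were called in opposite directions, xepsin being the farthest from the line.

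The stage change could also be set against that of ICD and DBM embryos, whose stage 28 and stage 18 arrays are from the same series, and the comparison asks which genes followed another course when Notch was raised or lowered. For ICD minus GFP, 32 of 32635 probe sets (0.0981%) differed in their stage change, 8 with a more upward and 24 with a more downward change in ICD embryos. For DBM minus GFP the count was 8 (0.0245%), all more upward in DBM. Same-numbered arrays of the 3 constructs deviated together within a stage (r = 0.49 to 0.72 at stage 28 and 0.45 to 0.81 at stage 18). For different numbers r was -0.43 to -0.19 at stage 28 and -0.69 to 0.573 at stage 18, where the ranges overlap. With the number as a block within each stage the counts were 1038 and 852. With the number as a block across stages they were 44 and 16. Leaving out GFP stage 18 replicate 1 gave 86 and 141.

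hey1.S, a direct Notch target, read 10.73, 10.92 and 10.79 in ICD embryos at stage 28 and 10.79, 10.33 and 10.28 in ICD embryos at stage 18, against 10.31, 10.29 and 10.24 in GFP embryos at stage 28 and 8.22, 8.02 and 8.19 in GFP embryos at stage 18. Its stage change was 0.345 in ICD and 2.14 in GFP embryos (difference -1.795 ± 0.17 SE, limma-adjusted p = 1.7e-05), and only the GFP stage 18 arrays were low. The repressor gene hes5.1.S changed by -1.24 in ICD embryos, against 1.18 in GFP embryos (limma-adjusted p = 0.00024). Its mean was higher in ICD embryos at both stages, 11.66 against 8.525 at stage 18 and 10.42 against 9.70 at stage 28. The crest genes snai2.L and foxd3.S changed by -0.54 and 0.31 in ICD embryos, against -1.79 and -0.97 in GFP embryos. At stage 18 their means were lower in ICD than in GFP embryos (8.68 against 9.38 and 9.39 against 10.025). At stage 28 they were higher (8.14 against 7.59 and 9.70 against 9.05). In DBM embryos the neurofilament gene nefm.S rose by 3.98, against 2.52 in GFP embryos (limma-adjusted p = 0.033), and olfm1.S, an olfactomedin of neural tissue, by 3.55, against 2.47 (limma-adjusted p = 0.016). The neuropeptide gene cck.L rose by 2.36 in DBM embryos, against 1.34 in GFP embryos, and gap43.L, of growing axons, by 2.15, against 1.11. These DBM calls were lost in many other settings: olfm1.S kept its call in 13 of 21, cck.L in 14 of 20, and nefm.S and gap43.L in 11 of 21 each.

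The GFP arrays at stage 38 show where each gene went next. The later difference, stage 38 minus stage 28, uses the same stage 28 arrays, so the 2 differences are not independent and are only given side by side. Over all probe sets with a symbol 7329 (47.3%) were called between stages 28 and 38, 23.0% higher and 24.3% lower at stage 38. Of the segmentation genes 62 of 107 probe sets were lower and 2 higher in the later step. tbxt.S averaged 9.55 ± 0.14 at stage 18, 7.12 ± 0.13 at stage 28 and 5.28 at stage 38. The hyaluronan synthase gene has1.S, described above with the epidermal genes, fell by a further 6.83. Muscle genes had 63 of 138 higher and 22 lower later. casq1.S rose by a further 2.27, and the later changes of pgam2.S (-0.27) and myoz2.S (-0.54) did not pass the test.

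Other genes had their larger difference after stage 28. ttr.L, transthyretin, read 5.37, 6.32 and 5.77 at stage 28 and 5.37, 5.64 and 5.13 at stage 18, which overlapped (0.44, limma-adjusted p = 0.067), and rose by 8.39 in the later step. rbp4.L, the retinol carrier of serum, gave 0.59 (limma-adjusted p = 0.198, another probe set 1.25 higher) and then 8.38. Photoreceptor genes, 8 of 47 higher by stage 28, had 40 of 47 higher in the later step, crx.L among them by 3.08. Among genes described above as higher at stage 28, examples with a later fall were hnf4a.S (-1.40), g6pc1.1.L (-2.04), sst.1.L (-2.06), mmp13.S (-2.68), pitx3.L (-1.46) and hoxd10.L (-1.51).

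**Figure D5:**
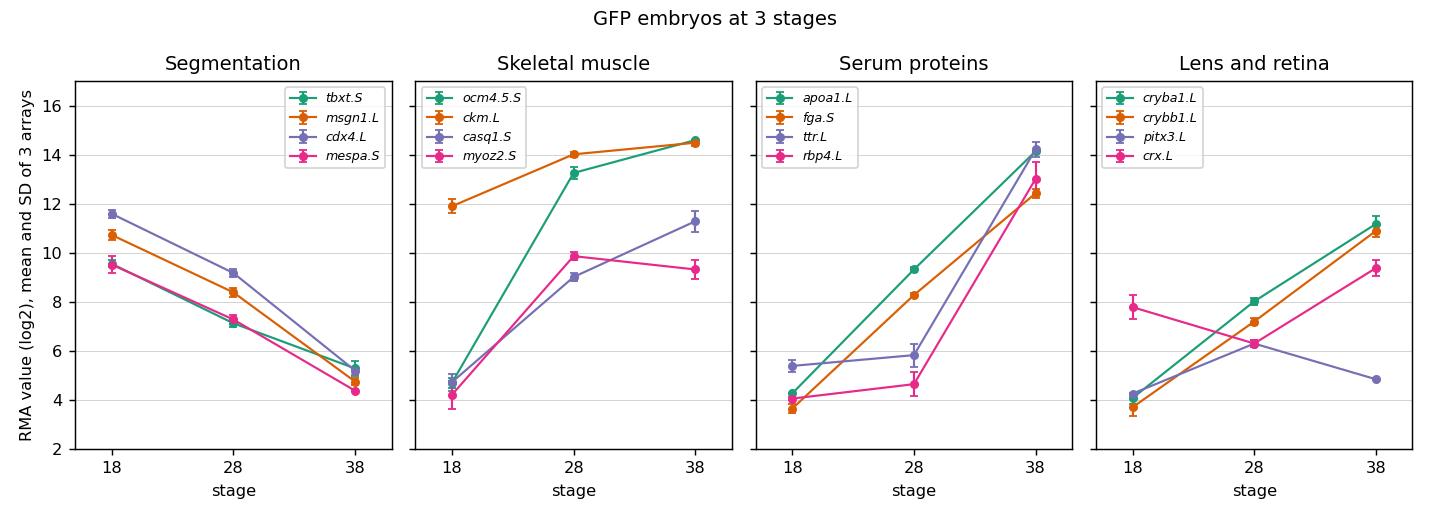
Mean RMA value (log2, bars are SD of 3 arrays) of 16 genes in GFP embryos at stages 18, 28 and 38, in panels for segmentation, skeletal muscle, serum protein and lens and retina genes. The segmentation genes fall at each step, ttr.L and rbp4.L stay low at stage 28 and rise by 8.39 and 8.38 to stage 38, and crx.L dips at stage 28.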

How the data were processed

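RNA of whole X. laevis embryos was hybridised by the authors to Affymetrix X. laevis Genome 2.0 arrays from 500 ng of RNA with a 16 h transcription. The deposited table holds log2 expression values that the authors obtained by RMA, which corrects background, quantile-normalises and summarises the probes of a set. RMA forces equal distributions of the probe intensities before they are summarised, and compresses differences of dim probe sets. The summarised values need not be equally distributed: the medians of the 6 arrays were 6.83 to 6.97. A second table by the authors repeats these 27 columns and holds their own adjusted p-values of construct comparisons. Its values were not used, and only its column names were read. Probe sets were named from the platform annotation, updated through RefSeq (15394 identifiers found). The 279 that match several genes were left unnamed.

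A model with 9 groups (construct by stage) was fitted to all 27 arrays with limma 3.58.1 in R 4.3.3 (18 residual degrees of freedom), with Benjamini-Hochberg adjustment over 32635 probe sets. The fit was tested on simulated data. Differences of L minus S log2 values per array were fitted in the same way. Tables and figures were made with Python 3.11.15, pandas 2.3.3 and matplotlib 3.10.9.

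The genes named are the 15 largest rises and the 15 largest falls among called, non-overlapping symbols. In each role of the 19 lists the 4 largest rises, the 4 largest falls and some well-known members are named. Homeolog pairs named are the 8 of lowest p among those with 1 copy called higher and the other lower or not called. The 6 pairs of largest difference and the 6 symbols of lowest p in each construct test are also named. A symbol is given by its brightest probe set, and a member with several roles counts under each. The comparison, its members and the lists were chosen with earlier results of these data known. Replicate numbers did not pair arrays across stages: same-numbered arrays of stages 28 and 18 deviated with r between -0.0514 and 0.015. Alternatives covered the normalization, arrays left out, array weights, blocks, dim or cross-hybridising probe sets and the adjustment. An array has no count or depth, and the number of arrays limits the precision.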

Additional observations from a re-analysis of the deposited data

Results flagged for a closer look

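The stage change differed between constructs by a test of the difference itself in 32 probe sets for ICD minus GFP and in 8 for DBM minus GFP (limma, adjusted p below 0.05). In ICD embryos the stage change (stage 28 minus stage 18, log2) was below that of GFP embryos by -1.795 for hey1.S, by -2.419 for hes5.1.S, by -0.897 for chac2.S, a glutathione-degrading enzyme, and by -0.945 for prkca.L, a protein kinase C gene. It was above that of GFP embryos by 1.249 for snai2.L and by 1.281 for foxd3.S. The limma-adjusted p of prkca.L (0.0031) was below 0.05 in 20 of 21 other settings.

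In DBM embryos the stage change was above that of GFP embryos by 1.088 for olfm1.S, by 1.019 for cck.L, by 1.460 for nefm.S, by 1.038 for gap43.L, by 0.999 for crmp1.L, an axon guidance mediator, and by 0.869 for rab6b.S, a neuronal trafficking gene. These limma-adjusted p values were 0.016 to 0.036, and across the other settings the highest were 0.18 for olfm1.S, 0.56 for cck.L, 0.37 for nefm.S, 0.63 for gap43.L and 0.56 for both crmp1.L and rab6b.S. The p stayed below 0.05 in 13 of 21 other settings for olfm1.S, 14 of 20 for cck.L, 11 of 21 for nefm.S and gap43.L, 9 of 21 for crmp1.L and 8 of 21 for rab6b.S. The stage 18 means of rab6b.S (4.24 in DBM and 4.35 in GFP embryos), olfm1.S, cck.L and nefm.S were near or below the reporter controls. Those of crmp1.L (4.81 in DBM and 4.93 in GFP embryos) were near them too. The differences of these genes have no exact size.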

How the results depend on the processing

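In the 10 settings tried for single genes none of the 510 genes named by the rule reversed, and 437 of the 475 called kept their call in all 10. Under the strictest alternative, a test for a change of more than 2-fold, 2074 probe sets were called between stage 28 and stage 18. The other alternatives gave 11747 to 20903, the highest with the replicate block within each stage, which was chosen after seeing the data. That block takes the shared deviations of same-numbered arrays out of the spread against which the stage difference is tested. With the replicate block the count was 17786 (numbers did not pair arrays across stages). With each GFP array left out in turn it was 14974 to 15761. A common median gave 17880 calls and shifted the median of all probe sets by -0.070, and the calls higher were 36.0% of all calls, against 42.8% as deposited. For homeolog pairs the Benjamini-Yekutieli adjustment gave 610, and leaving out an array 807 to 864. The replicate block gave 1005 pairs, array weights 1114 and the replicate block within each stage 1314. The ICD count of 32 was 9 in a model of its own arrays, 608 with array weights, 10 with Benjamini-Yekutieli, 44 with the replicate block and 1038 with the replicate block within each stage, which was chosen after seeing the data. Leaving out an array gave 15 (ICD stage 28 replicate 2) to 86 (GFP stage 18 replicate 1). It also gave 60 without ICD stage 18 replicate 1, 18 without GFP stage 18 replicate 3 and 20 without GFP stage 28 replicate 1 or 2. The DBM count of 8 was 0 in its own arrays (2026 at an unadjusted p below 0.05), 4 with a trended robust prior, 358 with array weights, 0 with Benjamini-Yekutieli, 16 with the replicate block and 852 with the replicate block within each stage. Leaving out an array gave 0 to 141, with 141 without GFP stage 18 replicate 1, 20 without GFP stage 28 replicate 3, and 0 without GFP stage 18 replicate 2, GFP stage 28 replicate 1 or 2, or DBM stage 18 replicate 2 (1864 to 2555 at an unadjusted p below 0.05). The cause of these moves was not tested. With 3 pools a stage, the differences of dim probe sets near the low end of the scale are uncertain in size, and no detection calls were used.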
